A study of Mus musculus with 16 samples.

Results

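Cycling tumor macrophages are the C1q-expressing macrophages of 2208L mammary tumors that carry RNA of the proliferation genes Mki67 and Top2a. The series holds 16 single-cell RNA libraries, in which each distinct RNA molecule seen counts as 1 UMI. Of these, 4 came from 2208L tumors, and the other 12, from bone marrow, were not used here. The 2208L model is a Trp53-null mammary tumor that is transplanted into female BALB/c mice, and all 4 groups carried it. Mice were given vehicle, IACS-70654, anti–PD-1 antibody or a combination, in an experiment of 7 days. The title of the combination library names no drugs, and it is read here as IACS-70654 with anti–PD-1. The combination arm that the paper describes also held docetaxel, and the title does not say whether this library did. All comparisons with the combination below rest on this reading. IACS-70654 inhibits the bromodomains of the histone acetyltransferases CBP and P300 and was given in cycles of 3 days on and 2 days off. Mice were 7 to 8 weeks old at transplantation, and each library pooled viable sorted tumor cells of 3 mice. There was 1 library per treatment, so no difference between treatments was tested, and the 95% intervals below cover counting error only.

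Members were selected on their UMI counts. A cell needed more than 200 and fewer than 6000 genes, at most 10% mitochondrial UMIs, at least 20 UMIs of C1qa, C1qb and C1qc together, at least 1 of Csf1r, at most 4 of Krt8, Krt18 and Epcam together, and at least 2 of Mki67 and Top2a together. These rules found 312 cycling macrophages among 77636 cell barcodes of the whole series, or among 13830 kept tumor cells. The vehicle tumor held 54 of them, the IACS-70654 tumor 102, the anti–PD-1 tumor 63 and the combination tumor 93. The macrophages that met the other rules but had at most 1 Mki67 or Top2a UMI, 5952 cells in all, are called non-cycling here and serve for comparison. No barcode was shared between the tumor libraries.

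Tissue macrophages can come from blood monocytes or renew themselves by division in place. A dividing cell copies its DNA in S phase with the help of helicases, polymerases and nucleotide-making enzymes, and it separates the copies in G2 and M phase with spindle, condensin and ubiquitin ligase proteins. C1q, the recognition part of the classical complement pathway, is made by macrophages, and Csf1r is the receptor for the growth factor that keeps them alive. Tumor-associated macrophages (TAMs) also take up debris, present antigen on MHC class II and release chemokines.

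The label was checked on genes that the rule did not use. All 18 genes of a macrophage identity list, among them Adgre1, Cd68 and Tyrobp, had UMIs in the members of each library. Levels are given as CPM, a gene's UMIs over all members of a library scaled to a common total. Their summed level was 28533 CPM with vehicle, 17142 with IACS-70654, 24319 with anti–PD-1 and 18616 in the combination, below the 33724, 25929, 32156 and 25630 CPM of non-cycling macrophages in the same order. The cell-cycle label was checked on 43 S-phase and 52 G2/M-phase genes without Mki67 and Top2a, after each cell was thinned at random to 5000 UMIs. The median member then had 45, 48, 51.5 and 50.5 UMIs of these genes in the vehicle, IACS-70654, anti–PD-1 and combination tumor, and the median non-cycling macrophage had 7 in each. In the same order, 9, 15, 9 and 16 members did not exceed the 95th percentile of the non-cycling cells of their library, so the label did not hold for these cells on the other genes.

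Markers of other cell types were present in the members. Epithelial genes summed to 30.5 to 42.7 CPM, against 36.4 to 41.3 CPM in non-cycling macrophages, and 2 to 4 of the 9 were at 0. Krt8, Krt18 and Epcam are on this list and were capped by the rule in both groups of cells, so these sums are partly set by it. Neutrophil genes, whose levels in droplets can come from free RNA, summed to 320, 127, 471 and 147 CPM in the order vehicle, IACS-70654, anti–PD-1 and combination, against 355, 273, 772 and 278 CPM in non-cycling cells, so both IACS-70654 libraries were lower in them. T and NK cell genes summed to 3.01 CPM in the vehicle members, 31.8 with IACS-70654, 56.9 with anti–PD-1 and 18.5 in the combination, against 38.9, 29.3, 22 and 25.6 CPM in non-cycling cells, so the anti–PD-1 members were above their non-cycling cells and the vehicle members below. Cd3e, Cd79a, Col1a1 or at least 10 S100a8 and S100a9 UMIs were found in 3, 8, 7 and 6 members. Fibroblast genes stayed between 3.26 and 9.03 CPM, against 29.4 to 72.3 in non-cycling cells. B cell genes ran from 6.32 to 38.9 CPM against 10.5 to 20.4, dendritic cell genes from 4.74 to 8.97 against 7.93 to 11.3, endothelial genes from 0.926 to 19.6 against 7.86 to 23.4, erythroid genes from 1.85 to 4.74 against 2.49 to 3.90, and mast cell genes were at 0 in all but the IACS-70654 members, at 0.815 CPM. Members were deep cells. Their median was 11199, 11417, 9507 and 11116 UMIs in the 4 libraries, against 6640.5, 6400.5, 6324 and 6163.5 in non-cycling macrophages. The part of depth, of cells caught together and of these other cell types in the results below was not tested, beyond the thinned and reduced sets given with them.

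Promoters of the G2/M genes are shown because these genes, more than any other list, set the members apart. The CHR, a promoter element of late cell-cycle genes, is read by its letters TTTGAA, and the CCAAT box by CCAAT, on either strand. RefSeq windows (build GRCm38.p6) from 250 bases before to 50 after each gene's start were searched. The CHR letters were in 68.9% of the 45 G2/M genes with a window, in 19.4% of 31 S-phase genes and in 20.2% of all 27025 genes, and the CCAAT letters were in 75.6%, 71.0% and 41.1%. CCAAT letters were not particular to cycle genes, being in 91.7% of 12 MHC class I genes and 100% of 5 MHC class II genes. The letters of E2F sites (TTTGGCGC, TTTCCCGC, TTTGCCGC and TTTCGCGC) were in 38.7% of S-phase genes, 6.67% of G2/M genes and 2.60% of all genes. A match says only that the letters are there. The stretches were taken only from G2/M genes with CHR letters, and that of Tmpo, not printed, held no CCAAT letters. In the following 100-base stretches, read toward the gene's start, capitals mark CHR and CCAAT letters.
Hmgb2 (chr8:57511739-57511838, plus strand): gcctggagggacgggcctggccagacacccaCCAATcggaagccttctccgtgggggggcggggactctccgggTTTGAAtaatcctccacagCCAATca
Ube2c (chr2:164769826-164769925, plus strand): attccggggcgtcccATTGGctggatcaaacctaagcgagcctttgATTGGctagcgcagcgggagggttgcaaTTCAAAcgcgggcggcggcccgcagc
Cks1b (chr3:89418292-89418391, minus strand): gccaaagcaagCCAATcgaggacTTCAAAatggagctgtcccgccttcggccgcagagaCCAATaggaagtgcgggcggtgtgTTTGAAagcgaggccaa
A second set bears on the interferon response genes described below. The letters of the interferon-stimulated response element (ISRE), GAAA, any 2 bases and GAAA again, were in 14 of 21 genes of the interferon list, or 66.7%, and in 3.99% of all genes. They were in 2 of 9 genes named below as higher with IACS-70654 and in 0 of 10 named as lower. Capitals mark the ISRE letters.
Isg15 (chr4:156200855-156200954, minus strand): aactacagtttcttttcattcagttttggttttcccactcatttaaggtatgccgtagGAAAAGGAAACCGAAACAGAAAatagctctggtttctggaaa
Bst2 (chr8:71537573-71537672, minus strand): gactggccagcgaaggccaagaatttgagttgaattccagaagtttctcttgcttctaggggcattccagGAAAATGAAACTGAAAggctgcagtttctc

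Fewer of the macrophages were cycling in both tumors given IACS-70654. With vehicle, 54 of 638 macrophages were members, or 8.46% (95% exact binomial interval 6.42 to 10.9). With IACS-70654, 102 of 2642 were, or 3.86% (3.16 to 4.67). With anti–PD-1 the count was 63 of 491, or 12.8% (10.0 to 16.1), and in the combination it was 93 of 2493, or 3.73% (3.02 to 4.55). The intervals of both IACS-70654 libraries lay below those of the other two libraries, and those of the vehicle and the anti–PD-1 library overlapped. Macrophages themselves were 32.3%, 55.8%, 23.9% and 49.2% of the kept cells in the order vehicle, IACS-70654, anti–PD-1 and combination. As a share of all kept cells the members were 2.74% (2.06 to 3.55), 2.15% (1.76 to 2.61), 3.07% (2.37 to 3.91) and 1.84% (1.48 to 2.25). On that denominator the intervals of vehicle and IACS-70654 overlapped, whereas that of the combination stayed below that of anti–PD-1. Cells of a pool are not replicates of a treatment, and more non-cycling macrophages and fewer cycling ones cannot be told apart in such shares.

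At fixed depths anti–PD-1 again had the highest share and vehicle the next, whereas IACS-70654 and the combination changed places within their intervals at 5000 UMIs and kept their order at 3000. After thinning to 5000 UMIs, 32 of 490 vehicle macrophages had at least 2 Mki67 and Top2a UMIs, or 6.53% (4.51 to 9.09). The thinned share was 3.3% with IACS-70654 (2.56 to 4.18), 13.3% with anti–PD-1 (10.0 to 17.1) and 3.68% in the combination (2.86 to 4.65). The vehicle interval stayed above that of IACS-70654 and now overlapped that of the combination. At 3000 UMIs the shares were 3.89% (2.51 to 5.73), 2.05% (1.54 to 2.68), 7.66% (5.42 to 10.4) and 1.95% (1.44 to 2.59) in the order vehicle, IACS-70654, anti–PD-1 and combination, and the vehicle interval overlapped those of both IACS-70654 libraries. Cells under 5000 UMIs, 148, 642, 114 and 673 in the 4 libraries, were left out there. Neutrophils, which do not divide once mature, gave the background: 1 of 85 had 2 such UMIs with vehicle, 1 of 108 with anti–PD-1, and 0 of 49 and 0 of 34 in the other two libraries, which allows up to 6.12% and 8.82%. Their median depth was only 1369 to 1731 UMIs, so this background is not matched in depth. Among epithelial tumor cells of the same libraries, at least 2 UMIs of both genes together were seen in 2.39%, 5.83%, 5.84% and 7.67%, and after thinning to 5000 UMIs in 1.82%, 2.23%, 1.90% and 4.31%.

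**Figure D1:**
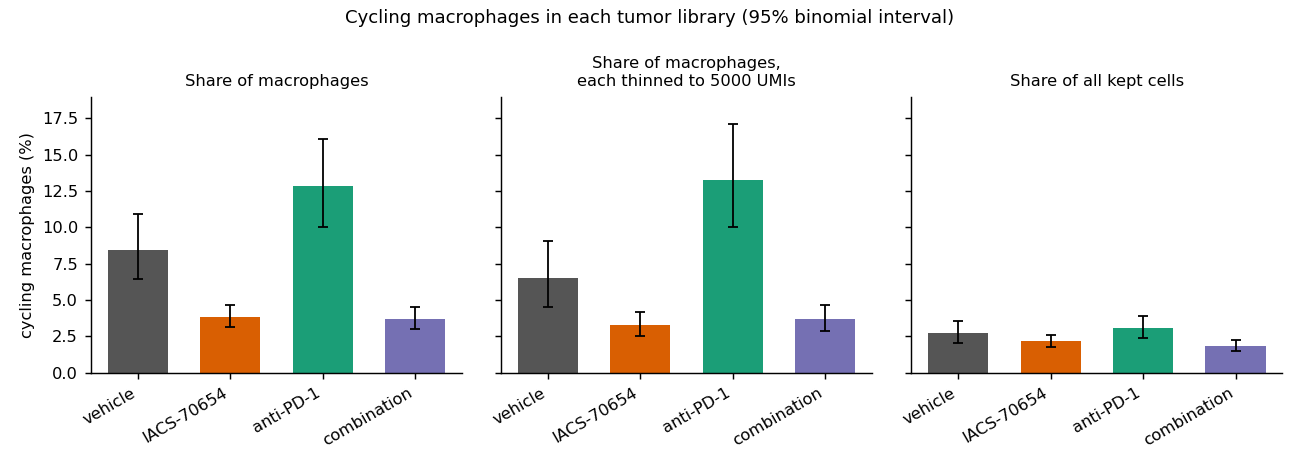
Bars give the cycling macrophages of each tumor library in percent of macrophages as counted, of macrophages thinned to 5000 UMIs, and of all kept cells, and lines give the 95% binomial interval. Both IACS-70654 libraries lie at 3.3% to 3.86% of macrophages, below vehicle at 6.53% to 8.46% and anti–PD-1 at 12.8% to 13.3%, whereas shares of all kept cells run only from 1.84% to 3.07%.

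The members spanned a wide range of Mki67 and Top2a counts. Exactly 2 UMIs, the minimum, were found in 16, 27, 15 and 24 members of the vehicle, IACS-70654, anti–PD-1 and combination tumor, and exactly 1, just outside the rule, in 62, 170, 43 and 162 macrophages. At least 10 were found in 16, 37, 24 and 38 members, and the highest counts were 39, 42, 30 and 51. Both genes were seen in 41, 75, 50 and 70 members. The C1q rule was far from binding, with a median of 213.5, 213.5, 168 and 195 C1q UMIs, and 34, 65, 40 and 55 members had no UMI of Krt8, Krt18 or Epcam.

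Most members carried more G2/M-phase than S-phase RNA in every library. After thinning to 5000 UMIs, 36 of 53 members had more UMIs of the G2/M list with vehicle (67.9%, 53.7 to 80.1) and 73 of 99 with IACS-70654 (73.7%, 63.9 to 82.1). The count was 40 of 62 with anti–PD-1 (64.5%, 51.3 to 76.3) and 69 of 90 in the combination (76.7%, 66.6 to 84.9). The intervals of the 4 libraries overlapped, and a difference between treatments in the balance of phases was not tested. More S-phase UMIs were found in 14, 22, 20 and 21 members. The median member had 10, 10, 12.5 and 9 S-phase UMIs and 23, 29, 30.5 and 31 G2/M UMIs. The lists differ in size and level, and 66.4% to 68.2% of non-cycling macrophages also had more G2/M UMIs, so the share is not a share of cells in mitosis. Members were chosen on Mki67 and Top2a, themselves late cell-cycle genes, so the rule favors G2/M-rich cells. With at least 3 UMIs of these genes the share was 81.6% with vehicle and 76.6% with anti–PD-1. Free RNA enters such counts, and its part was not tested.

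**Figure D2:**
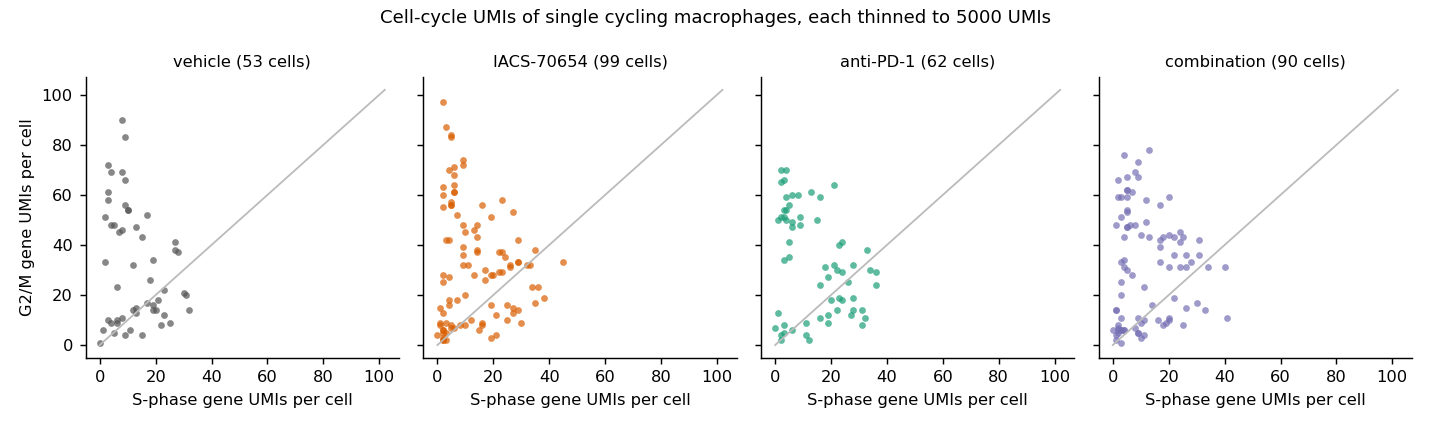
Each dot is 1 cycling macrophage of the named library thinned to 5000 UMIs, with its S-phase UMIs on the x axis and its G2/M UMIs on the y axis, and the line marks equal counts. In each panel most dots lie above the line, 64.5% to 76.7% of the cells, with a smaller number of S-phase-rich cells below it.

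Against non-cycling macrophages of the same library, the members were higher in replication and mitosis genes and lower in several macrophage functions. The rule made this contrast, so it is described and not tested. Of 4245 genes with at least 20 expected UMIs in every library, 72 were at least 2-fold higher in the members in all 4 libraries, and 18 of these were on the S-phase or G2/M list, of 23 such genes measured. Ube2c, the ubiquitin-conjugating enzyme of the anaphase-promoting complex, led with a log2 ratio of 5.76 with vehicle, 6.61 with IACS-70654, 5.90 with anti–PD-1 and 7.67 in the combination. Pclaf, which binds the replication clamp, followed at 4.91, 6.14, 5.00 and 6.81, and Birc5, a subunit of the chromosomal passenger complex, at 4.42, 6.27, 4.92 and 6.40. Of the others, some chosen after their values were seen were the microtubule destabilizer Stmn1 (3.52 to 4.43), the condensin subunit Smc2 (3.44 to 3.97), the histone methyltransferase Ezh2 (2.40 to 3.23), the DNA ligase Lig1 (2.37 to 3.23) and the maintenance DNA methyltransferase Dnmt1 (1.33 to 2.15).

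Only 5 genes were at least 2-fold lower in the members in all 4 libraries, and 4 of them are described here. The chemokine Ccl8 had 522, 543, 452 and 219 CPM in the members in the order vehicle, IACS-70654, anti–PD-1 and combination, against 1769, 1180, 1291 and 1857 CPM in non-cycling cells. Ccl5, a T cell attracting chemokine, had 57.2, 55.4, 25.3 and 46.3 CPM against 145, 173, 157 and 179. The complement component C4b and the interleukin 18 binding protein Il18bp had log2 ratios from -1.04 to -2.68. These 4 genes were picked for being low in the members of each library, so their low level under each drug follows from that choice.

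Median list ratios within a library gave the same picture. The G2/M list stood at 2.36, 2.57, 2.51 and 2.55 on the log2 scale and the S-phase list at 1.41, 2.13, 1.82 and 1.77. Nucleolar genes, which serve ribosome assembly, were next at 0.60 to 0.89. On the lower side were the scavenger and resident list (-0.49, -0.99, -0.52 and -1.04), the interferon response list (-0.46 to -0.73), the MHC class II list (-0.18 to -0.76) and the lipid and lysosome list (-0.39 to -0.60). Immediate early genes, the quick transcription factors of a stimulus, stood at -0.24 to -0.59 with 12 of 12 genes below 0 in each library. Growth factor receptors stood at -0.32 to -0.57, and macrophage identity genes at -0.25 to -0.39 with 15 to 17 of 18 below 0. The scavenger ratio was lowest in both IACS-70654 libraries, but its medians covered 8, 6, 8 and 6 genes in the 4 libraries. The S-phase medians covered 8, 17, 11 and 14. Summed over the scavenger list, the members had 1894, 1302, 1310 and 1036 CPM, against 2623, 2970, 2203 and 2984 in non-cycling cells. A member's UMIs of cycle genes take part of its total, so ratios of other genes are relative to that total. The median of all genes and their share below 0 were not taken for this contrast, so the counts below 0 have no background beside them.

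**Figure D3:**
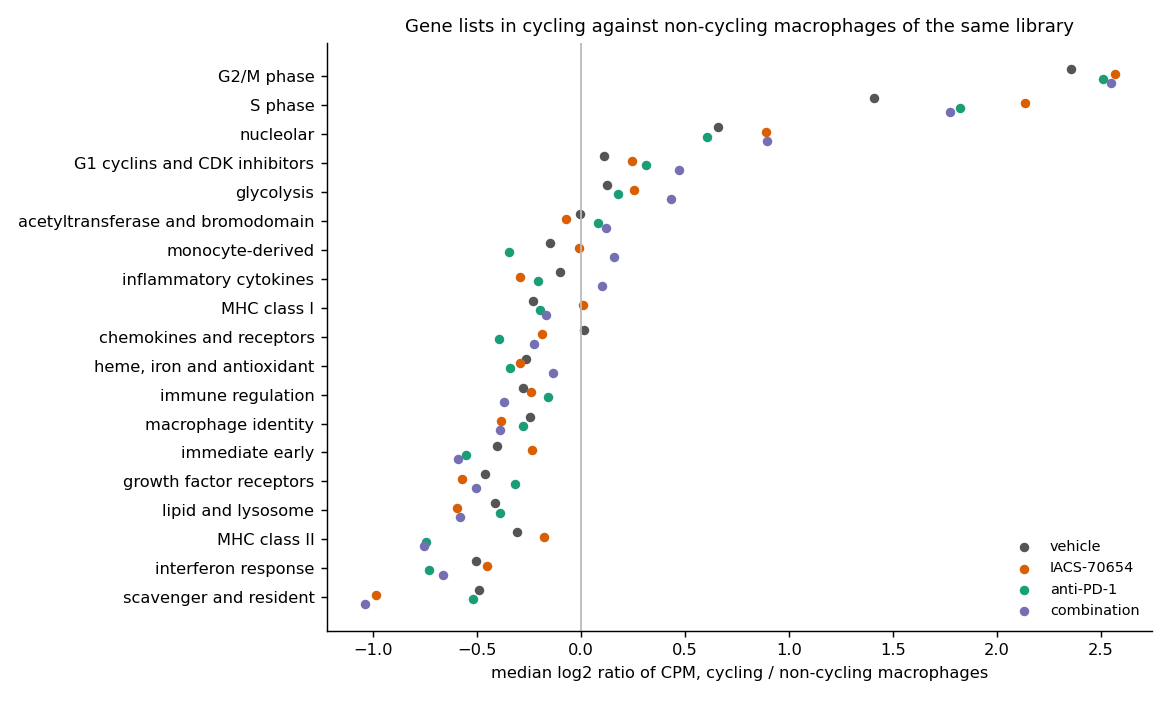
Each dot is the median log2 ratio of CPM, cycling over non-cycling macrophages of 1 library, over the genes of a list, colored by treatment. G2/M genes lie at 2.36 to 2.57 and S-phase genes at 1.41 to 2.13, whereas scavenger, interferon, MHC class II and lipid lists lie below 0 in all 4 libraries.

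IACS-70654 was read in a pair of comparisons that share no library, IACS-70654 against vehicle and combination against anti–PD-1, on UMIs summed over the members. A gene counted as past 2-fold when its CPM ratio was at least that size, among genes with at least 20 expected UMIs in the smaller library. With IACS-70654, 109 of 4863 genes were past 2-fold higher than with vehicle, or 2.24%, and 81 were past 2-fold lower, or 1.67%. In the combination, 58 of 4711 genes were past 2-fold higher than with anti–PD-1, or 1.23%, and 103 were lower, or 2.19%. Of the 4507 genes measured in both, 39 were past 2-fold lower in both comparisons, which is 54.9% of the 71 lower in the former and 40.2% of the 97 lower in the latter. Past 2-fold higher in both were 12, or 14.3% of 84 and 24.0% of 50. The median of all genes was 0.07 and -0.01 on the log2 scale. These counts depend on the filter on low genes and on depth. When each member was thinned to 5000 UMIs, 48 genes were higher and 49 lower for IACS-70654, of only 2231 then measured.

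The genes named for IACS-70654 had the same sign and an interval without 0 in both comparisons, ranked by the smaller of the paired log2 ratios. Ccl24 (ENSMUSG00000004814), an eosinophil-attracting chemokine, led the higher genes. Its level in the members was 10.5 CPM with vehicle, 83.2 with IACS-70654, 11.1 with anti–PD-1 and 123 in the combination, and both IACS-70654 libraries were far above the other two libraries. The log2 ratios were 2.98 (1.89 to 4.33) and 3.48 (2.39 to 4.82), beside 2.57 and 2.68 in non-cycling macrophages. The RNA was uneven between cells, being seen in 29 of 102 and 27 of 93 members of the IACS-70654 libraries, with up to 41 UMIs in a single cell. The vehicle and anti–PD-1 values are only 7 UMIs each, and 6 of the 7 with anti–PD-1 came from 1 cell.

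Lpl (ENSMUSG00000015568), the lipoprotein lipase that frees fatty acids from lipoproteins, had 25.6 and 22.1 CPM with vehicle and anti–PD-1 and 150 and 213 CPM with IACS-70654 and in the combination. It was seen in 11, 44, 9 and 47 members in the order vehicle, IACS-70654, anti–PD-1 and combination. Areg, the EGF receptor ligand amphiregulin, had 30.1, 104, 1.58 and 128 CPM in that order, where the anti–PD-1 value is 1 UMI. Its UMIs came from 5, 18, 1 and 13 cells and a single member of the IACS-70654 tumor held 70 of 128, so the level rests on few cells. Saa3, an acute phase protein, had 6.02, 66.8, 41.1 and 87.9 CPM and was likewise seen in only 4, 10, 5 and 14 members.

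Rbm3 differed from these in being found in most cells. This cold-inducible RNA-binding protein gene had 420, 946, 458 and 1087 CPM in the order vehicle, IACS-70654, anti–PD-1 and combination and was seen in 50 of 54, 101 of 102, 59 of 63 and 92 of 93 members. Its log2 ratios of 1.17 (0.98 to 1.37) and 1.25 (1.06 to 1.44) compare with 0.93 and 0.74 in non-cycling cells. Plac8 had 85.8, 174, 83.8 and 323 CPM, from 14 of 54, 44 of 102, 17 of 63 and 51 of 93 members, and the class I gene H2-Q7 34.6, 80.7, 33.2 and 75.0 CPM, though reads of H2-Q7 and its near-identical neighbors may be split. The remaining genes named by the same rule, AA467197, Zbtb1, Samd9l, Cd164 and Ifi211, had log2 ratios of 1.00 to 1.56 with IACS-70654 and 1.14 to 2.53 in the combination. AA467197 was seen in only 4, 19, 3 and 14 members, and 1 cell held 26 of its 59 UMIs in the combination. Samd9l and Ifi211 are interferon-inducible genes and Cd164 encodes a sialomucin.

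**Figure D4:**
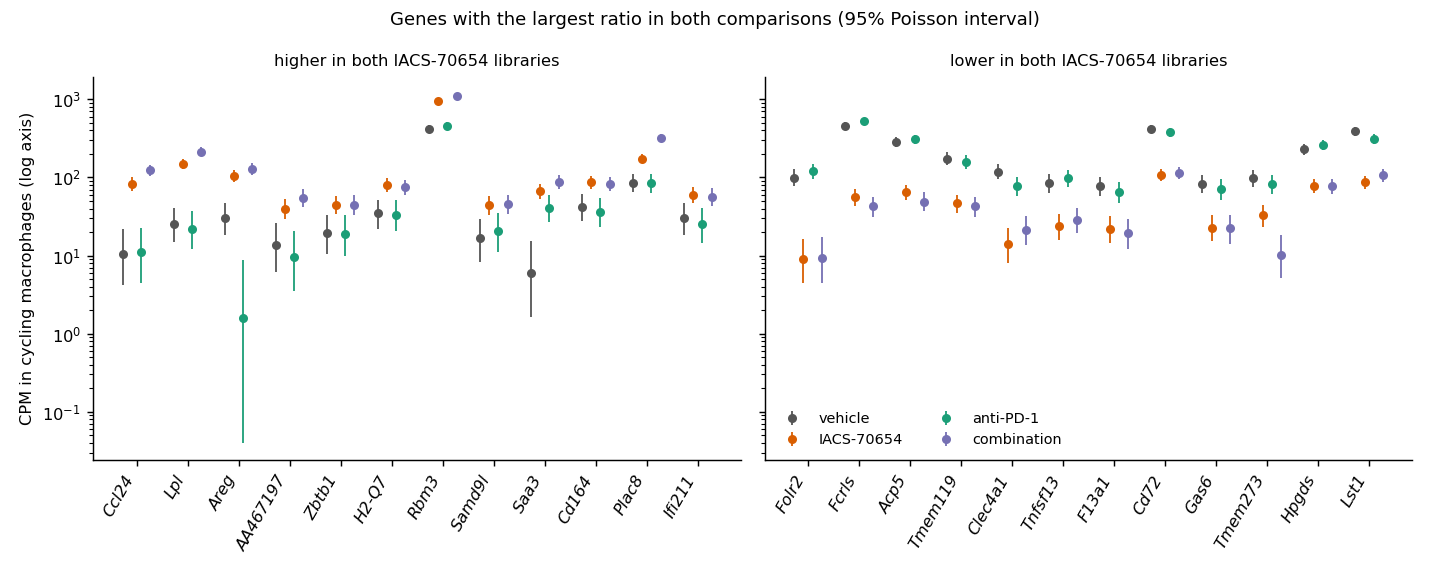
Points give CPM (log axis) of the 12 higher and 12 lower named genes in the cycling macrophages of each library, and lines the 95% Poisson interval. For each gene both IACS-70654 libraries lie on the same side of the vehicle and anti–PD-1 libraries, from Ccl24 (83.2 and 123 CPM against 10.5 and 11.1) to Folr2 (8.97 and 9.26 against 99.3 and 120), and the Areg value with anti–PD-1 is a single UMI.

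The lower genes were led by markers of resident-type macrophages. Folr2 (ENSMUSG00000032725), a folate receptor of tissue-resident macrophages, had 99.3 CPM with vehicle, 8.97 with IACS-70654, 120 with anti–PD-1 and 9.26 in the combination. Its log2 ratios were -3.47 (-4.54 to -2.54) and -3.70 (-4.82 to -2.74), near the -3.38 and -3.15 of non-cycling macrophages. Fcrls (ENSMUSG00000015852), an Fc receptor-like scavenger receptor of microglia and related cells, had 460, 55.4, 523 and 42.6 CPM, and it was seen in 42 of 54, 30 of 102, 48 of 63 and 26 of 93 members. Both genes were about an order of magnitude lower in both IACS-70654 libraries.

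Acp5, the tartrate-resistant acid phosphatase, had 281, 65.2, 307 and 49.1 CPM in the order vehicle, IACS-70654, anti–PD-1 and combination. Tmem119, a microglia marker, had 175, 46.5, 158 and 42.6 CPM, with log2 ratios of -1.91 and -1.89 against -0.93 and -0.91 in non-cycling cells. The lectin receptor gene Clec4a1 had 119, 13.9, 77.5 and 21.3 CPM, with -3.10 and -1.86 against -1.36 and -0.80. The genes were ranked on the members' ratios, so ratios nearer 0 in non-cycling macrophages can follow from that choice. F13a1 (coagulation factor XIII), Gas6 (ligand of the receptor Mertk), Cd72, the cytokine gene Tnfsf13 (APRIL), Hpgds (prostaglandin D synthase), Lst1 and Tmem273 made up the rest, with log2 ratios from -1.58 to -2.17 with IACS-70654 and from -1.55 to -3.01 in the combination.

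Of the scavenger and resident list, 7 genes were measured in each comparison, and 4 were past 2-fold lower with IACS-70654 and 3 in the combination, against the 1.67% and 2.19% of all genes. Several members of this list are among the genes named above, so its count is not a separate observation. The list's median was -1.04 with IACS-70654 and -0.90 in the combination, but -0.40 with IACS-70654 after thinning to 5000 UMIs and 0.020 in the combination when members needed at least 3 Mki67 and Top2a UMIs. Stab1, a scavenger receptor, had 129, 62.8, 96.4 and 51.8 CPM in the order vehicle, IACS-70654, anti–PD-1 and combination. Mrc1, the mannose receptor, did not follow it, with 408, 280, 242 and 266 CPM and log2 ratios of -0.54 (-0.77 to -0.30) and 0.14 (-0.15 to 0.43).

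MHC class II genes, which encode the molecules that show peptides to CD4+ T cells, were lower in the members of both IACS-70654 libraries. Of 7 genes measured, 7 were lower and 5 were past 2-fold lower than with vehicle, against 1.67% of all genes, with a median log2 ratio of -1.43. In the combination, 6 of 6 were lower than with anti–PD-1 and 3 were past 2-fold, against 2.19%, with a median of -0.89. The beta chain gene H2-Ab1 had 2807 CPM with vehicle, 999 with IACS-70654, 1726 with anti–PD-1 and 807 in the combination. H2-Eb1 had 2445, 820, 1361 and 620 CPM, and Cd74, the invariant chain, 9108, 5300, 5951 and 4101 CPM. The order of the 4 libraries was the same for these genes, with the combination lowest and vehicle highest. Non-cycling macrophages had medians of -1.38 and -0.98. Without members that had any UMI of Krt8, Krt18 or Epcam, the median in the combination was -0.41.

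MHC class I genes were mostly higher in the members of the IACS-70654 libraries. The class I gene H2-D1 had 2543, 3929, 2499 and 3867 CPM in the order vehicle, IACS-70654, anti–PD-1 and combination, and H2-K1 had 1234, 1818, 1027 and 1700 CPM. B2m, the light chain, had 1724, 2239, 1677 and 2389 CPM. The class I list had a median of 0.47 with IACS-70654, with 10 of 12 genes above 0 and 2 past 2-fold, against 2.24% of all genes, and of 0.63 in the combination, with 11 of 11 above 0 and 1 past 2-fold, against 1.23%. After thinning to 5000 UMIs the former median was 0.28. Non-cycling macrophages had class I medians of 0.41 with IACS-70654 and 0.71 in the combination. The tapasin gene Tapbp was an exception, with -0.52 (-0.89 to -0.14) and 0.04 (-0.38 to 0.47).

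The interferon response list had medians of 0.48 and 0.60, with 5 of 20 and 3 of 17 genes past 2-fold higher, against 2.24% and 1.23% of all genes, and 0 past 2-fold lower in either comparison. Non-cycling macrophages had medians of 0.62 and 0.60. In the members the interval lay above 0 for 7 and 8 genes, and the share of all genes with such an interval was not counted. The median with IACS-70654 depended on the setting, at 0.0031 when members needed at least 3 Mki67 and Top2a UMIs, 0.12 after thinning to 5000 UMIs, 0.15 with at least 50 expected UMIs and 0.27 without keratin or Epcam UMIs, whereas in the combination it ran from 0.46 to 0.70 over the alternatives run. Ifit1, Ifit2, Ifit3, Rsad2 and Usp18 were past 2-fold with IACS-70654, whereas Oasl2, Ifi44 and Ifih1 were in the combination. Ifit3, an antiviral effector, had 19.6, 48.1, 47.4 and 28.7 CPM in the order vehicle, IACS-70654, anti–PD-1 and combination, so that it was higher in the former comparison and at -0.72 (-1.50 to 0.05) in the latter. Ifi44 had 170, 189, 79.0 and 220 CPM. Isg15, whose ISRE is printed above, had 176, 205, 152 and 250 CPM, and Bst2, also printed above, had 367, 271, 256 and 316 CPM. Bst2, the virion-tethering protein tetherin, was thus lower with IACS-70654 than with vehicle, at -0.44 (-0.68 to -0.19), and higher in the combination than with anti–PD-1, at 0.30 (0.03 to 0.58).

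Some genes, among them lipid genes, had ratios in the members unlike those in non-cycling macrophages. Spp1 (ENSMUSG00000029304), the secreted protein osteopontin, had 3272 and 3250 CPM in the members with vehicle and anti–PD-1 and 5861 and 5432 CPM with IACS-70654 and in the combination. The log2 ratios were 0.84 (0.77 to 0.91) and 0.74 (0.67 to 0.81), against -0.04 and -0.32 in non-cycling cells. Lpl, which was named for its ratios in the members, stood at 2.55 and 3.27 against 0.65 and 1.46. The fatty acid receptor gene Cd36 had 6.02, 65.2, 1.58 and 47.2 CPM in the members in the order vehicle, IACS-70654, anti–PD-1 and combination, and 5.65, 7.98, 7.69 and 11 CPM in non-cycling macrophages. The Cd36 values of the vehicle and anti–PD-1 members are only 4 UMIs and 1 UMI. In the combination against anti–PD-1, Cd36 fell below the limit on expected UMIs, so only its levels are given there. For Spp1, Lpl and Cd36 the members of both IACS-70654 libraries were above every other group of cells. Spp1 and Cd36 were not named by the ranking rule, so this contrast describes chosen genes only. The lipid and lysosome list as a whole had medians of -0.14 and -0.31 in the members.

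Apoe (ENSMUSG00000002985), the lipid-carrying apolipoprotein E, had the opposite pattern. Non-cycling macrophages had 43067 CPM with vehicle, 61242 with IACS-70654, 39890 with anti–PD-1 and 63913 in the combination, a log2 ratio of 0.51 and 0.68 in the IACS-70654 comparisons. The members had 28768, 20889, 20649 and 20650 CPM, which gave -0.46 (-0.49 to -0.43) and 0.00 (-0.03 to 0.03). Selenop, the selenium carrier, was similar, with 901, 800, 504 and 542 CPM in the members and 1293, 2228, 1034 and 2152 CPM in non-cycling cells. The members were thus below the non-cycling cells by 0.58, 1.55, 0.95 and 1.63 on the log2 scale for Apoe in the order vehicle, IACS-70654, anti–PD-1 and combination. Whether these ratios differ between cycling and non-cycling cells beyond the variation between mice was not tested. Of the lipid and lysosome list as a whole, 2 of 15 genes were past 2-fold higher and 0 lower with IACS-70654, against 2.24% and 1.67% of all genes. In the combination 1 of 14 was higher and 2 were lower, against 1.23% and 2.19%, the lower ones being Fabp5 and Lgals3.

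In the IACS-70654 comparisons 2.24% and 1.23% of all genes were past 2-fold higher, and a difference of the cycle genes from these shares was not tested. The S-phase list had medians of 0.19 with IACS-70654 and -0.09 in the combination, with 1 of 28 and 0 of 31 genes past 2-fold higher (the former median was 0.55 with at least 3 Mki67 and Top2a UMIs), and the G2/M list 0.09 and -0.02, with 1 of 43 and 0 of 42. With IACS-70654 the interval lay above 0 for 7 S-phase and 8 G2/M genes and below 0 for 0 genes of either list. In the combination it lay above 0 for 0 and 4 genes and below 0 for 2 and 3. The share of all genes with such intervals was not counted, so these counts have no background beside them. The median of all genes was 0.07 with IACS-70654 and -0.01 in the combination. The spindle-associated Ckap2 was past 2-fold lower in the combination, at -1.04. Chaf1b, a histone chaperone subunit, was the S-phase gene past 2-fold, with 13.5, 44.0, 31.6 and 37.0 CPM in the order vehicle, IACS-70654, anti–PD-1 and combination. In non-cycling macrophages the same lists stood at -0.33 and -0.18 for S phase and -0.20 and -0.18 for G2/M. The nucleolar list had medians of 0.38 and 0.18, led by Npm1 with 864, 1207, 1114 and 1227 CPM, with 0 of 7 genes past 2-fold in either comparison.

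Of the G1 cyclins, cyclin D1 was lower and cyclin D2 higher with IACS-70654. Ccnd1, cyclin D1, had 147 CPM with vehicle, 64.4 with IACS-70654, 122 with anti–PD-1 and 67.6 in the combination, with log2 ratios of -1.19 (-1.64 to -0.75) and -0.85 (-1.33 to -0.37). Ccnd2, cyclin D2, had 36.1, 96.2, 58.5 and 77.7 CPM, with 1.41 (0.77 to 2.11) and 0.41 (-0.16 to 1.01), and Ccnd3 37.6, 52.2, 34.8 and 67.6 CPM. The CDK inhibitor gene Cdkn1a, which halts the cycle, had 345, 433, 392 and 581 CPM. The targets of the drug were close to level. Crebbp, which encodes CBP, had 108, 119, 112 and 130.5 CPM, Ep300, which encodes P300, had 55.7, 58.7, 64.8 and 66.6 CPM, and the acetyltransferase and bromodomain list had medians of 0.12 and 0.17 with 0 genes past 2-fold.

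Within the macrophage identity list, 3 of 18 genes were past 2-fold lower and 1 was higher with IACS-70654, against 1.67% and 2.24% of all genes, and 2 were lower in the combination, against 2.19%. Adgre1, which encodes F4/80, had 280, 127, 223 and 90.7 CPM in the order vehicle, IACS-70654, anti–PD-1 and combination, and Aif1 had 982, 454, 873 and 434 CPM. Lyz2, lysozyme, had 12658, 5009, 9116 and 6087 CPM. The higher gene was Mertk, the receptor that engulfs dying cells, with 37.6, 106, 36.4 and 67.6 CPM. Ccr2, the receptor that brings monocytes into tissue, had 304, 108, 187 and 111 CPM, and Cd274, which encodes PD-L1, had 16.5, 49.7, 25.3 and 42.6 CPM. Both IACS-70654 libraries were below the other two libraries for Adgre1, Aif1, Lyz2 and Ccr2 and above them for Mertk and Cd274.

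The chemokine list differed between the paired IACS-70654 comparisons, which share no library. With IACS-70654 against vehicle the list had a median of 0.04, with 1 of 18 genes past 2-fold higher and 1 lower, against 2.24% and 1.67% of all genes. In the combination against anti–PD-1 it had a median of 0.83, with 8 of 18 higher and 1 lower, against 1.23% and 2.19%. Ccl4, which attracts T and NK cells, had 1034, 933, 357 and 887 CPM in the order vehicle, IACS-70654, anti–PD-1 and combination. Ccl6 had 325, 397, 144 and 491 CPM, Ccl9 113, 175, 69.6 and 224 CPM, and the neutrophil attractant Cxcl2 931, 1132, 708 and 1603 CPM. In these genes the anti–PD-1 members were the lowest of the 4 libraries. The combination against IACS-70654 also had a list median of 0.19, with 12 of 18 genes above 0. What set the comparisons apart was not tested. Without members that had keratin or Epcam UMIs the medians were -0.31 and 0.46. In non-cycling macrophages they were 0.04 for IACS-70654 against vehicle and 0.19 for the combination against anti–PD-1. The monocyte attractant Ccl2, with 412, 649, 289 and 754 CPM, was above its control in both comparisons.

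**Figure D5:**
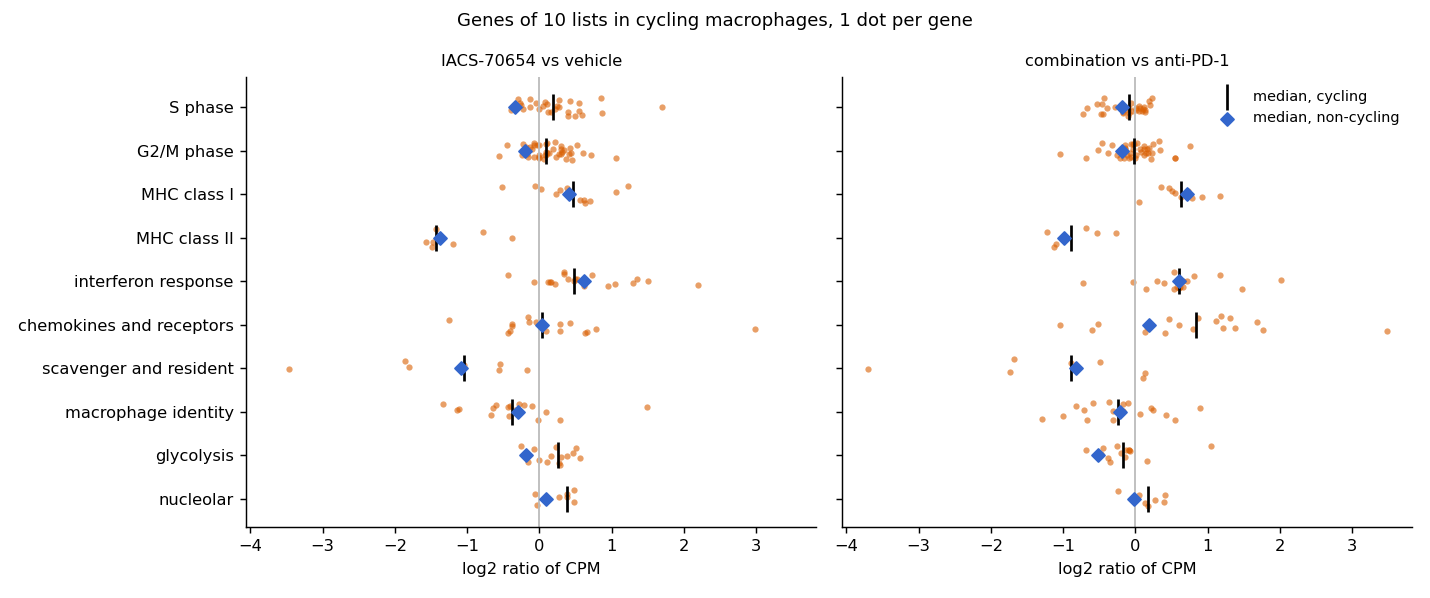
Each orange dot is 1 gene's log2 ratio of CPM in cycling macrophages, with the list median as a black tick and the median of the same list in non-cycling macrophages as a blue diamond, for IACS-70654 against vehicle (left) and combination against anti–PD-1 (right). MHC class II medians lie at -1.43 and -0.89 and MHC class I medians at 0.47 and 0.63, whereas the chemokine median is 0.04 on the left and 0.83 on the right.

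Anti–PD-1 was read in the other pair of comparisons, anti–PD-1 against vehicle and combination against IACS-70654, which also share no library. Compared with vehicle, 59 of 4670 genes were past 2-fold higher, or 1.26%, and 25 were lower, or 0.535%. After thinning to 5000 UMIs these were 34 and 10 of 2301 genes. In the combination against IACS-70654, 15 of 6312 were higher, or 0.238%, and 41 were lower, or 0.650%. Of 4627 genes measured in both, 0 were past 2-fold higher in both and 0 were lower in both, out of 56 and 3 higher and 24 and 14 lower genes.

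Genes with the same sign and an interval without 0 in both anti–PD-1 comparisons showed small ratios. They were 18 higher and 23 lower genes, from 4627 measured in both before the excluded gene classes were left out. Crip1, a LIM domain protein gene, had 486 CPM with vehicle, 702 with anti–PD-1, 477 with IACS-70654 and 684 in the combination. Ifnar1, a chain of the type I interferon receptor, had 51.2, 106, 50.5 and 75.0 CPM, and Entr1, R3hdm1 and the mitochondrial enzyme gene Gpd2 were the other higher genes, with ratios of 0.53 to 1.02. On the lower side, the class IIa histone deacetylase gene Hdac9 had 114 CPM with vehicle, 60.1 with anti–PD-1, 85.6 with IACS-70654 and 47.2 in the combination. The class II loading factor gene H2-DMb1 had 469, 258, 170 and 110 CPM in that order, and Selenop, Oasl1 and Pde7b had ratios of -0.56 to -0.84. Of the 55 Oasl1 UMIs with vehicle, 20 came from 1 cell. In non-cycling macrophages the ratios of H2-DMb1 were -0.12 and 0.24, and those of Hdac9 0.13 and 0.08. There Entr1 had 0.09 and -0.28, R3hdm1 0.19 and -0.17, Ifnar1 -0.07 and 0.02, and Gpd2 0.02 and 0.17. Crip1 had 0.32 and -0.08, Selenop -0.32 and -0.05, Oasl1 -0.04 and 0.08, and Pde7b -0.14 and 0.10. All these genes were chosen on their ratios in the members.

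Of the lists, MHC class II was lower with anti–PD-1 in the members in both comparisons, with 7 of 7 genes below 0 against vehicle (median -0.70) and 6 of 6 below 0 in the combination (median -0.38), and 0 past 2-fold in either. Non-cycling macrophages had medians of -0.16 and 0.19. Chemokines had a median of -0.50 with anti–PD-1 against vehicle, with 4 of 17 genes past 2-fold lower against 0.535% of all genes, and of 0.19 in the combination against IACS-70654. The former was -0.20 without keratin or Epcam UMIs and -0.23 after thinning. In non-cycling macrophages the chemokine medians were -0.02 with anti–PD-1 against vehicle and 0.15 in the combination against IACS-70654. Glycolytic genes had a median of 0.39 in the members with anti–PD-1, with 13 of 14 above 0, and of 0.31 in non-cycling cells, but of 0.05 in the members of the combination against IACS-70654. Aldoa, aldolase, had 340 CPM with vehicle and 609 with anti–PD-1, but 444 with IACS-70654 and 476 in the combination. S-phase and G2/M lists stood at 0.39 and 0.20 with anti–PD-1 against vehicle, with 24 of 31 and 36 of 44 genes above 0, and at -0.01 and 0.14 in the combination against IACS-70654. All genes had medians of 0.07 and -0.01 in these comparisons, and their share above 0 was not counted. With edgeR scaling the medians against vehicle were 0.31 for S phase, 0.12 for G2/M and -0.01 for all genes. The S-phase median with anti–PD-1 was 0.64 with at least 3 Mki67 and Top2a UMIs and 0.14 after thinning.

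The medians of the remaining lists lay between -0.40 and 0.25. In the order IACS-70654 against vehicle and combination against anti–PD-1, they were -0.21 and 0.03 for inflammatory cytokines, where Ptgs2 was past 2-fold higher in the combination and the former median was 0.28 after thinning, and 0.24 and 0.14 for immediate early genes. They were -0.40 and 0.01 for heme, iron and antioxidant genes, -0.03 and 0.07 for monocyte-derived genes (the latter 0.54 without members that had other cell type markers), -0.13 and -0.18 for immune regulation genes, 0.15 and -0.14 for growth factor receptors, 0.25 and 0.03 for G1 cyclins and CDK inhibitors, 0.25 and -0.18 for glycolysis, -0.37 and -0.24 for macrophage identity and -0.14 and -0.31 for lipid and lysosome genes. Csf2rb, the shared chain of the GM-CSF and interleukin 3 receptors, had 143, 254, 149 and 236 CPM in the order vehicle, IACS-70654, anti–PD-1 and combination.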

How the data were processed

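Raw gene counts per cell, deposited by the authors without normalization, were read for the 4 tumor libraries; UMIs were counted with Cell Ranger, version 7.1.0 per the file headers, and the submitters' processing notes name mm10. Each library was separated by its CellPlex sample tag, and the study loosened the confidence required for tag assignment in the tumors. Members and gene lists were chosen with earlier results of these data known, and samples were grouped by the treatment in the labels. UMIs were summed over members per library (632623 to 1226683), scaled to CPM and compared as log2 ratios with exact conditional Poisson (Clopper-Pearson) 95% intervals; shares have exact binomial intervals. Intervals and the limit for a count of 0, taken as 3 counts, cover counting error only. Genes needed at least 20 expected UMIs in the smaller library. Cells were thinned without replacement to 5000 UMIs. Of the genes with an interval without 0 in both comparisons of a pair, leaving out the rule's genes, mitochondrial, ribosomal protein, Xist, Tsix, Gm and Rik genes, the 12 highest and 12 lowest were named for IACS-70654 and 5 and 5 for anti–PD-1, beside list members. Gene lists numbered 19, beside 9 of other cell types. Scrublet (scanpy 1.11.5) marked 23 of 13830 kept cells, or 0.166%, and 0 members, and so did not work as a doublet filter; cells in the top 10% of scores were left out instead as an alternative chosen after seeing the data. Python 3.11.15 with numpy 2.4.6, scipy 1.17.1 and pandas 2.3.3, and R 4.3.3 with edgeR 4.0.16 and DESeq2 1.42.0 for scaling factors, were used. Alternatives covered scaling, the filter, cell rules, thinning and other cell types. Bone marrow libraries were not used here. The neoR transgene feature had 0 UMIs, and the leading CellPlex tag held 90.2% to 92.5% of tag counts.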

Additional observations from a re-analysis of the deposited data

Results flagged for a closer look

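Pf4, the chemokine platelet factor 4, had 251 CPM in the cycling macrophages of the vehicle tumor, 106 with IACS-70654, 88.5 with anti–PD-1 and 206 in the combination. Of 21 genes whose intervals lay on opposite sides of 0 in the paired comparisons, it was the only one past 2-fold in both, with a log2 ratio of -1.25 (95% interval -1.59 to -0.91) for IACS-70654 against vehicle and of 1.21 (0.79 to 1.66) for the combination against anti–PD-1. These are 167, 130, 56 and 222 UMIs. The difference between the comparisons was not tested, as there is 1 library per treatment.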

How the results depend on the processing

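No paired analysis was possible because the tumor labels give no replicate numbers that pair libraries, and a fit of each drug across the 4 libraries, with the other drug as a block, was not run. Of 52 alternative values of the share of cycling macrophages, 36 stayed within the counting interval, and in those that follow anti–PD-1 was highest and vehicle next. In the order vehicle, IACS-70654, anti–PD-1 and combination, the share was 18.2%, 10.3%, 21.6% and 10.2% with at least 1 Mki67 or Top2a UMI, 5.96%, 2.84%, 9.78% and 2.77% with at least 3, 4.70%, 2.20%, 8.15% and 2.05% with at least 5, and 3.89%, 2.05%, 7.66% and 1.95% after thinning to 3000 UMIs. With at least 3, members with more G2/M UMIs were 81.6% with vehicle and 76.6% with anti–PD-1. Counts of genes past 2-fold depended on the filter. The number of genes measured changed with it too. For IACS-70654 against vehicle, 251 were higher and 179 lower of 6873 genes with at least 10 expected UMIs. They were 21 and 40 of 2270 with at least 50, 2817 and 1710 of 14252 with no filter, and 48 and 49 of 2231 after thinning to 5000. For the combination against anti–PD-1 these were 152 and 221 of 6760, 19 and 42 of 2187, and 2300 and 2052 of 13956, with 32 of 2628 higher after thinning. For anti–PD-1 against vehicle they were 203 and 100 of 6786, 4 and 6 of 2169, 2344 and 1867 of 13592, and 34 and 10 of 2301 after thinning. With keratin and Epcam at 0, 14 of 3259 were lower. For the combination against IACS-70654 they were 81 and 126 of 8044, 3 and 8 of 3548, and 1778 and 2204 of 14471, with 26 of 3634 lower after thinning. In that comparison 24 of 5686 were higher with at least 3 Mki67 and Top2a UMIs, and 24 of 4308 with keratin and Epcam at 0. Without the top 10% of doublet scores 30 of 5931 were higher there. Of 760 list medians, 739 lay within the typical half-width of the counting interval of the list's genes, a wide tolerance under which 76 took the opposite sign, and 21 lay outside it. Within it, the interferon response median was 0.0031 for IACS-70654 with at least 3 Mki67 and Top2a UMIs and 0.26 for anti–PD-1 with keratin and Epcam at 0. For MHC class II, IACS-70654 against vehicle gave -1.03 with keratin and Epcam at 0, -1.10 after thinning and -1.0 without the top doublet scores, anti–PD-1 against vehicle gave -0.96 with at least 3 Mki67 and Top2a UMIs and -0.83 with keratin and Epcam at 0, and the combination against anti–PD-1 gave -1.10 with at least 10 expected UMIs, -0.41 with keratin and Epcam at 0 and -0.65 after thinning. For chemokines, keratin and Epcam at 0 gave -0.31 for IACS-70654 and 0.46 for the combination against anti–PD-1. Scavenger medians were -0.55 with at least 50 expected UMIs and -0.40 after thinning for IACS-70654, 0.43 after thinning for anti–PD-1, and 0.11 with at least 50 expected UMIs and 0.020 with at least 3 Mki67 and Top2a UMIs for the combination against anti–PD-1. Inflammatory cytokines were 0.28 after thinning and 0.27 without the top doublet scores for IACS-70654. Monocyte-derived genes were -0.69 without other cell type markers for anti–PD-1, -0.15 after thinning for the combination against IACS-70654, and 0.54 and 0.56 without those markers and without the top doublet scores for the combination against anti–PD-1. Of 269 values of named genes 259 stayed within their counting interval, Ccl24 and Areg in the combination and Saa3 with IACS-70654 had no ratio after thinning as the control was at 0, and no called direction reversed in any alternative run. Settings that leave fewer UMIs leave fewer genes past the filter, and the cause of these moves was not tested.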
